A study of Mus musculus with 22 samples.

Results

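The genes described are 7 matrix metalloproteinases (Mmp2, Mmp3, Mmp7, Mmp9, Mmp12, Mmp13 and Mmp14) and 3 of their tissue inhibitors (Timp1, Timp2 and Timp3), followed through the stages of islet tumours in RIP1-Tag2 mice. They were chosen by name, with earlier results of these data known, so counts of calls among them are a description and not a test. Each of the 10 had 1 probe set carrying its symbol alone, out of 19938 genes measured. Each RNA sample was hybridised to an Affymetrix Mouse Gene ST array of its own, and every level below is a log2 intensity from the authors' table, so that a difference of 1 is a doubling of intensity. The tissue labels define 6 groups: normal islets (3 arrays), hyperplastic islets (3), angiogenic islets (3), islet tumours (5), met-like primary tumours (5) and liver metastases (3). All 22 samples carry the RIP1-TAG2 genotype label, normal islets included. In this transgene the rat insulin promoter drives a viral T antigen in beta cells, so it is these cells that are transformed, while vessels, fibroblasts and leukocytes of the tumours belong to the host. Ages, the number of mice, and the way primaries were assigned to the met-like class are not stated in the labels, and whether samples of a group came from separate mice is not stated either, so p-values measure the spread between samples only.

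Matrix metalloproteinases are zinc-dependent endopeptidases that are made as inactive proenzymes and cleave collagens, laminins, proteoglycans and many signalling proteins outside the cell. The tissue inhibitors bind the active site of the enzymes and block it. TIMP2 also has an opposite part: it anchors the proenzyme of MMP2 to membrane-bound MMP14, a step in the activation of MMP2 by MMP14. In tumours much of this system is made by fibroblasts, macrophages and other host cells. MMP9 in particular is known from RIP1-Tag2 mice as a protease of infiltrating leukocytes that releases VEGF from the matrix when islets become angiogenic.

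The promoters are shown first because 4 of the 10 genes, Mmp13, Mmp12, Mmp3 and Mmp7, lie in this order along the same stretch of chromosome 9, while Mmp14 and Timp1, shown for contrast, lie on chromosomes 14 and X. RefSeq promoter sequences (GRCm38.p6, 250 bases before and 50 after each annotated start) were matched for 8 of the 10 genes in 10 windows. Mmp2 and Mmp9 were not matched. The lines below run 5′ to 3′ from 130 bases before the start through the first 30 bases after it, with capitals for 2 motifs searched on both strands: TGANTCA, the site of AP-1 (Fos and Jun dimers), and TATAAA, the TATA box core. Mmp12 and Mmp7 have 2 annotated starts each, and the one shown holds both motifs.
Mmp13 (chr9:7272384-7272543, plus strand): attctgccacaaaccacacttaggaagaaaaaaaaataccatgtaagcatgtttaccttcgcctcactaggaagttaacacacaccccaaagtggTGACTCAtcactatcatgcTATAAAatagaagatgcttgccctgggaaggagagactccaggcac
Mmp12 (chr9:7347244-7347403, plus strand): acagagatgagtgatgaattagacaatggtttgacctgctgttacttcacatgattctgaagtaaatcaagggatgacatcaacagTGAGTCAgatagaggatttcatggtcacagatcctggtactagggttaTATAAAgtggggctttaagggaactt
Mmp3 (chr9:7445692-7445851, plus strand): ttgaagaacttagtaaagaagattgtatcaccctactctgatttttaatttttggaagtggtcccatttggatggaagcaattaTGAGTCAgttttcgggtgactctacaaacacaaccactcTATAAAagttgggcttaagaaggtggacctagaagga
Mmp7 (chr9:7691960-7692119, plus strand): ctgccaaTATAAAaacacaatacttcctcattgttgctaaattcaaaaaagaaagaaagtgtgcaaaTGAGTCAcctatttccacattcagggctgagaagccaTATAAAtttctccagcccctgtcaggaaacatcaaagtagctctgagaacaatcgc
Mmp14 (chr14:54431468-54431627, plus strand): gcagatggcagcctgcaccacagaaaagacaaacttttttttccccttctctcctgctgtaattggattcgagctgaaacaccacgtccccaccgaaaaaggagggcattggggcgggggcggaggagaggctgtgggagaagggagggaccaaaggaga
Timp1 (chrX:20870036-20870195, plus strand): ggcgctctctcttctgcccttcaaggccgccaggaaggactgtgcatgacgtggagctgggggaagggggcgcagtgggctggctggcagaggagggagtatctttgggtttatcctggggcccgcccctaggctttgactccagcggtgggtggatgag

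Each of the 4 chromosome 9 genes had a TGANTCA match, beginning 35 bases before the start in Mmp13, 44 in Mmp12, 46 in Mmp3 and 63 in Mmp7. Downstream of it each also had TATAAA, which began 16 bases before the start in Mmp13, 7 in Mmp3 and 26 in Mmp7, and at base 5 after the start in Mmp12. Mmp7 held a further TATAAA 123 bases before its start. The windows of Mmp14, Timp1, Timp2 and Timp3 and the other starts of Mmp12 and Mmp7 had neither set of letters, and no match overlapped another. Of all 32851 windows in the table, 7.81% held TGANTCA, 13.6% held TATAAA and 1.54% held both. These are matches of letters in a window, not tested sites. GC content of the whole windows was 39% in Mmp7, 40% in Mmp3, 40.7% in Mmp12 and 43.7% in Mmp13 for the starts shown, against 55% in Timp1, 56% in Mmp14, 67% in Timp3 and 68.7% in Timp2.

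**Figure D1:**
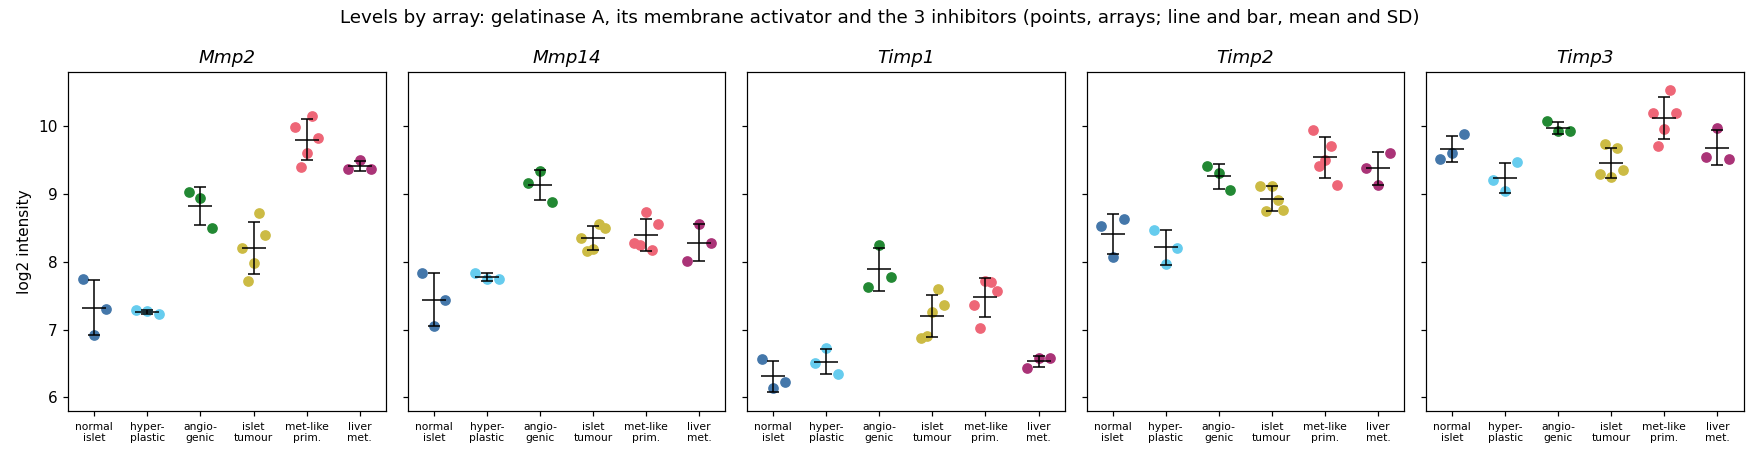
Log2 intensity (vertical axis) of Mmp2, Mmp14, Timp1, Timp2 and Timp3 on each of the 22 arrays, by tissue label in stage order (horizontal axis). Points are arrays, and the line and bar give the group mean and SD. Angiogenic islets stand above hyperplastic islets in all 5 panels, Mmp2 is highest in met-like primaries, and Timp1 in liver metastases lies back at its level in hyperplastic islets (6.53 in each).

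Array medians lay between 7.08 and 7.22. The tissue labels were checked against marker genes. Beta-cell markers (8 of 10 listed genes measured) averaged 11.58 to 11.64 on normal islet arrays and 10.48 to 11.05 in islet tumours, and 8.63 to 9.23 in met-like primaries, where all 8 fell against islet tumours. Hepatocyte markers averaged 10.36 to 10.84 in liver metastases and at most 9.30 on any other array, and acinar markers averaged 8.57 to 11.51 on all arrays, liver metastases included. Xist, the RNA of the inactive X chromosome, was 10.67 to 11.41 on all 9 islet arrays and 5.33 to 6.46 on all 13 tumour and metastasis arrays. Its level thus divides the arrays in the same way as islet against tumour, and its part in the comparisons of tumours with islets cannot be told apart. In tissue pieces, a lower level of a transcript from 1 cell type can mean fewer such cells or less RNA per cell, and these cannot be told apart either.

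At the first step, hyperplastic against normal islets, none of the 10 genes passed the test (limma, adjusted p below 0.05), while 8.64% of all genes did (4.46% higher and 4.17% lower). Timp3, the inhibitor that stays bound to the matrix, was the 1 gene with an unadjusted p below 0.05. It stood at 9.20, 9.04 and 9.48 in hyperplastic islets, against 9.51, 9.60 and 9.89 in normal islets, a difference of -0.43 ± 0.18 (SE, adjusted p = 0.167). Its values did not overlap, but the gap between the groups was small. Mmp2 in hyperplastic islets was 7.29, 7.27 and 7.22, against 7.74, 6.92 and 7.31 in normal islets, so that the hyperplastic values lay inside the normal range. The difference of Mmp14 was 0.33 ± 0.18 and that of Timp1 0.22 ± 0.20. The median difference of the 10 genes was 0.05, against -0.01 over all genes.

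At the second step, angiogenic against hyperplastic islets, 5 of the 10 genes rose and none fell: the gelatinase Mmp2, its membrane activator Mmp14 and all 3 inhibitors. Of all genes, 2.53% were called in this comparison, 2.29% higher and 0.246% lower. The median difference of the 10 genes was 0.66, against -0.04 over all genes.

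Mmp2 had the largest difference of the 10 genes. It stood at 9.02, 8.95 and 8.50 in angiogenic islets, against 7.29, 7.27 and 7.22 in hyperplastic islets. The groups were far apart, and the difference was 1.56 ± 0.22, or 2.95-fold (adjusted p = 0.000323). Mmp14, which sits in the cell membrane and also cleaves fibrillar collagen itself, was 9.17, 9.34 and 8.89 in angiogenic islets, against 7.84, 7.74 and 7.74 in hyperplastic islets. All 3 angiogenic values lay more than 1 log2 unit above the hyperplastic mean of 7.77, and the difference was 1.36 ± 0.18, or 2.56-fold (adjusted p = 0.000154).

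Among the inhibitors, Timp1, a secreted inhibitor that is inducible in many cell types, was 7.63, 8.25 and 7.78 in angiogenic islets, against 6.50, 6.72 and 6.35 in hyperplastic islets. The groups did not overlap, and the difference was 1.36 ± 0.20 (2.57-fold, adjusted p = 0.000359). Timp2 was 9.41, 9.31 and 9.06 in angiogenic islets, against 8.47, 7.97 and 8.20 in hyperplastic islets, a difference of 1.05 ± 0.19 (2.07-fold, adjusted p = 0.00228). Again no angiogenic array came down to the hyperplastic range. Timp3 was 10.08, 9.93 and 9.92 in angiogenic islets, against 9.20, 9.04 and 9.48 in hyperplastic islets, a difference of 0.74 ± 0.18 (adjusted p = 0.028). This last call was the weakest of the 5: it was lost without HyperplasticI-93 (adjusted p = 0.0853), Hyperplastic2006 (0.167), AngiogenicI-93 (0.124) or Angiogenic2006 (0.0811).

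The differences had the same sign within each title code that the islet groups share. In the samples titled I-93 and in the pairs of the other two codes, in that order, Mmp2 differed by 1.74, 1.67 and 1.27, Mmp14 by 1.33, 1.60 and 1.15 and Timp1 by 1.13, 1.53 and 1.43. Timp2 differed by 0.94, 1.34 and 0.86 and Timp3 by 0.88, 0.89 and 0.45. The other members had smaller differences with wider relative error. Mmp13, the main collagenase of the mouse, differed by 0.58 ± 0.33 (adjusted p = 0.463), Mmp12, the elastase of macrophages, by 0.45 ± 0.27 (0.503), Mmp3, the stromelysin of fibroblasts, by 0.26 ± 0.17 (0.561) and Mmp7, the matrilysin of epithelia, by 0.15 ± 0.17 (0.76). In a fit of these 6 arrays alone, Mmp13 (adjusted p = 0.0153) and Mmp12 (adjusted p = 0.0444) were called as well. Mmp9, the gelatinase of leukocytes, differed by -0.01 ± 0.10 (95% interval -0.21 to 0.18, adjusted p = 0.966).

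Markers of several host cell types moved with the rises. Fibroblast markers were higher in 8 of 10 cases (median 1.64) and averaged 9.19 to 9.45 on the angiogenic arrays, against 7.88 to 7.92 on the hyperplastic ones. Macrophage markers were higher in 9 of 13 (median 0.84, 8.05 to 8.69 on the angiogenic arrays, against 7.47 to 7.63), pericyte and smooth muscle markers in 5 of 8 (median 1.02) and endothelial markers in 5 of 10 (median 0.55). Their part in the rises of Mmp2, Mmp14 and the inhibitors was not tested. Neutrophil markers had 0 of 12 called (median 0.00) and averaged 5.50 to 5.93 on the angiogenic arrays, against 5.65 to 5.76 on the hyperplastic ones, with Ly6g at 4.86 and S100a8 at 5.50 on average in angiogenic islets.

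Against normal islets, angiogenic islets were higher in Mmp14 (1.69 ± 0.18, adjusted p = 1.26e-06), Timp1 (1.58 ± 0.20, adjusted p = 6.05e-06), Mmp2 (1.50 ± 0.22, adjusted p = 4.79e-05) and Timp2 (0.85 ± 0.19, adjusted p = 0.00208). Thus 4 of 10 genes rose and 0 fell, with 24.8% of all genes called, 11.8% higher and 13% lower. The median difference of the 10 genes was 0.69, against -0.07 over all genes. Timp3 differed by 0.31 ± 0.18 (adjusted p = 0.226), and its mean in hyperplastic islets (9.24) was below that in normal islets (9.67). Mmp13 came near the threshold, with 6.67, 6.94 and 6.77 in angiogenic islets, against 5.94, 5.94 and 5.88 in normal islets (0.87 ± 0.33, adjusted p = 0.0558). Its groups were well apart, and it was called in a fit of these 6 arrays alone (adjusted p = 0.000982). The comparison shares its angiogenic arrays with the one before. Fibroblast markers were higher in 10 of 10 cases (median 1.84), macrophage markers in 12 of 13 (median 1.20), pericyte markers in 8 of 8 (median 1.16), lymphocyte markers in 7 of 8 (median 1.31) and endothelial markers in 5 of 10 (median 0.36). Hepatocyte markers were higher in 5 of 11 and lower in 1 (median 0.48). The angiogenic arrays were uneven in 2 of these lists. Lymphocyte markers averaged 6.26 to 8.68 on them, with the lowest below every normal islet array (6.37 to 6.45). Hepatocyte markers averaged 7.52 to 9.30, against 7.48 to 7.78 on the normal ones. The part of all these cells in the rises was not tested.

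**Figure D2:**
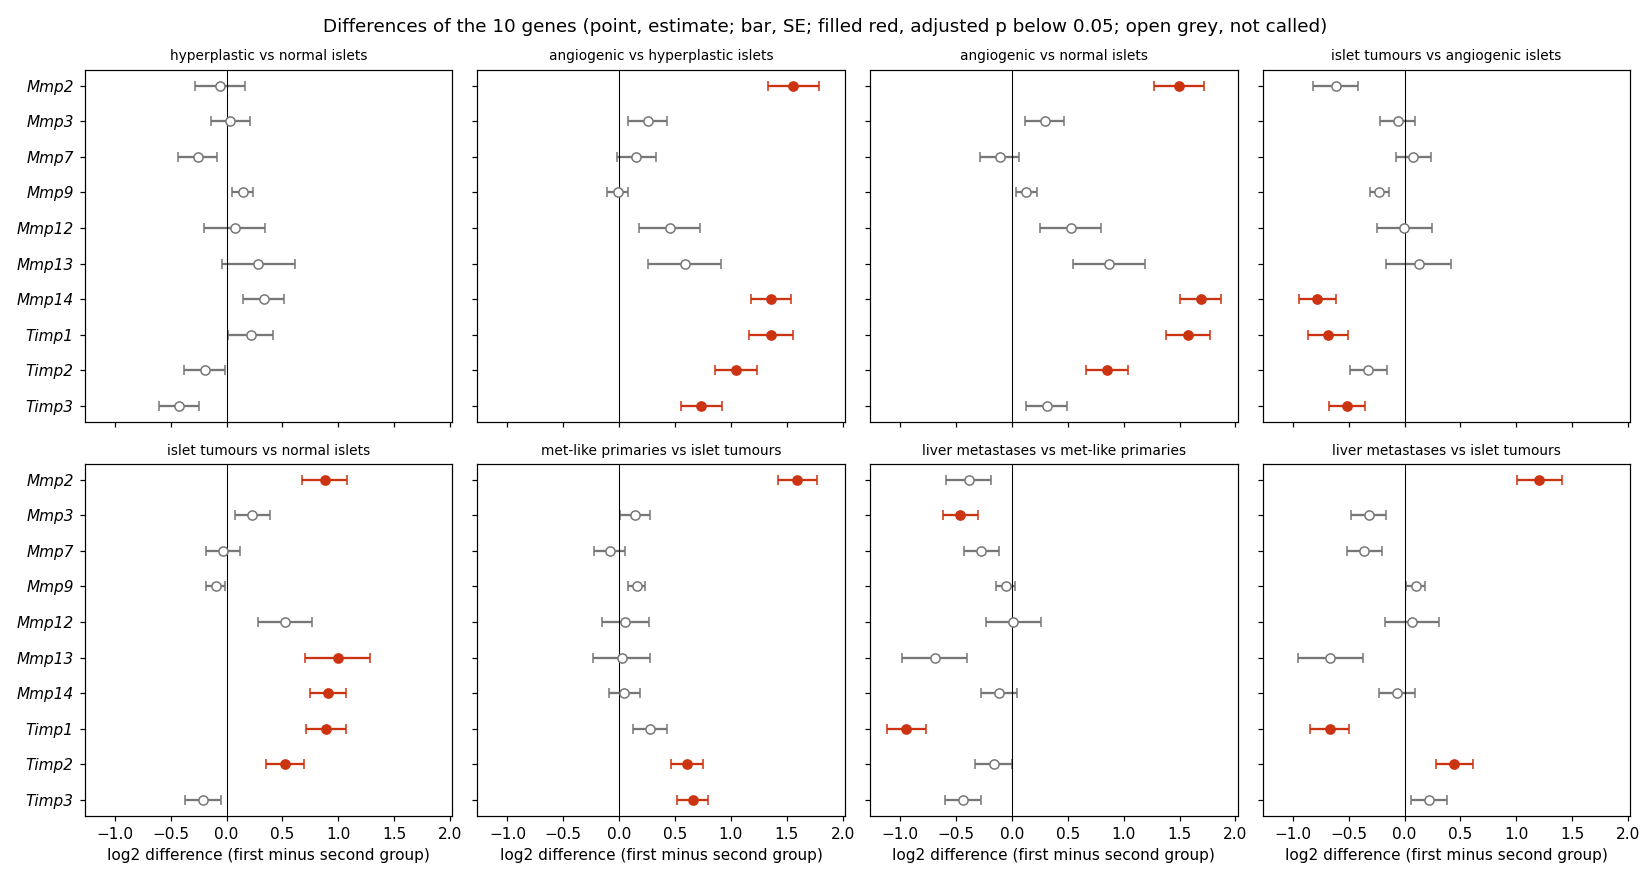
Log2 differences (horizontal axis, first-named minus second-named group) of the 10 genes (rows) in the 8 comparisons (panels), with bars for the SE. Filled red points passed an adjusted p of 0.05, and open grey points did not. The 5 red points of angiogenic against hyperplastic islets lie between 0.74 and 1.56, and Mmp2 (1.59) lies alone at the right in met-like primaries against islet tumours.

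In islet tumours against angiogenic islets, 3 of 10 genes fell and none rose: Mmp14, Timp1 and Timp3. In this comparison 9.54% of all genes were called, 6.45% lower and 3.09% higher, and the median difference was -0.28 for the 10 genes and 0.05 over all genes. Mmp14 was 8.35, 8.16, 8.19, 8.56 and 8.49 in islet tumours, against 9.17, 9.34 and 8.89 in angiogenic islets. The groups did not overlap, and the difference was -0.78 ± 0.16 (adjusted p = 0.00408). Timp1 was 6.88, 6.91, 7.26, 7.60 and 7.37 in islet tumours, against 7.63, 8.25 and 7.78 in angiogenic islets, a difference of -0.68 ± 0.18 (adjusted p = 0.0174). Its highest tumour, III-8017-tumor, reached nearly to the lowest angiogenic array. This call was lost without Angiogenic2006 (adjusted p = 0.127) and in a fit of the 8 arrays alone (0.0795).

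Timp3 was 9.29, 9.73, 9.25, 9.67 and 9.35 in islet tumours, against 10.08, 9.93 and 9.92 in angiogenic islets. Its difference was -0.52 ± 0.16 (adjusted p = 0.046), a call kept in 6 of 17 alternatives, with adjusted p from 0.0319 to 0.205, and lost without any 1 of the angiogenic arrays, I-9811-tumor, II-6415-tumor or III-8024-tumor. Timp2 was 9.12, 8.76, 9.12, 8.91 and 8.76 in islet tumours, against 9.41, 9.31 and 9.06 in angiogenic islets, and the groups overlapped (-0.33 ± 0.17, adjusted p = 0.234). Mmp2 spread widely among the tumours, with 8.21, 7.71, 7.99, 8.72 and 8.39, against 9.02, 8.95 and 8.50 in angiogenic islets. Its difference of -0.62 ± 0.20 missed the threshold (adjusted p = 0.0556), and it was called in 5 of 17 alternatives, among them without Angiogenic2007 (0.0308) and without III-8017-tumor (0.0165). Fibroblast markers were lower in 9 of 10 cases (median -1.38), pericyte markers in 5 of 8 (median -0.71), lymphocyte markers in 6 of 8 (median -1.46), endothelial markers in 6 of 10 (median -0.58), hepatocyte markers in 8 of 11 (median -1.22) and macrophage markers in 1 of 13 (median -0.22). Lymphocyte markers averaged 6.06 to 6.55 on the islet tumour arrays, against 6.26 to 8.68 on the angiogenic ones, so the arrays overlapped. The part of all these cells in the falls was not tested.

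Islet tumours nevertheless stood above normal islets in 5 of the 10 genes, with 0 lower, while 29% of all genes were called, 13% higher and 16.1% lower. The median difference was 0.53 for the 10 genes and -0.01 over all genes. Mmp14 was 8.16 to 8.56 in islet tumours, against 7.84, 7.05 and 7.44 in normal islets, with no overlap, and differed by 0.91 ± 0.16 (adjusted p = 0.00018). Timp1 was 6.88 to 7.60 in islet tumours, against 6.57, 6.14 and 6.22 in normal islets, and differed by 0.89 ± 0.18 (adjusted p = 0.000515). The difference of Mmp2 was 0.88 ± 0.20 (adjusted p = 0.00185), with the lowest tumour (7.71) just below the highest normal array (7.74). Timp2 was 8.76 to 9.12 in islet tumours, against 8.53, 8.07 and 8.63 in normal islets, and differed by 0.52 ± 0.17 (adjusted p = 0.0212). That call was lost without Normal2006, the array with the lowest Timp2 (adjusted p = 0.182), and with array weights (0.0856).

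Mmp13 was the fifth gene, and the size of its rise, though not its call, leaned on 1 tumour. It was 6.72, 6.69, 5.97, 6.93 and 8.29 in islet tumours, against 5.94, 5.94 and 5.88 in normal islets, a difference of 1.00 ± 0.29 (adjusted p = 0.0122). The value of 8.29 belongs to III-8024-tumor, and II-6415-tumor lay close to normal islets. Without III-8024-tumor the difference was 0.65 and still called (adjusted p = 0.00506), while a fit of the 8 arrays alone did not call it (0.0892). Macrophage markers were higher in 9 of 13 cases (median 1.08), fibroblast markers in 5 of 10 (median 0.47) and pericyte markers in 3 of 8 (median 0.35), beta-cell markers were lower in 4 of 8 (median -0.51) and hepatocyte markers in 4 of 11 (median -0.45), and their part in these rises was not tested.

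The comparison of met-like primaries with islet tumours, 2 classes of primary tumour, set Mmp2 apart in size. Of the 10 genes 3 rose, Mmp2, Timp2 and Timp3, and none fell, where 26.5% of all genes were called, 12.3% higher and 14.2% lower. The median difference was 0.15 for the 10 genes and -0.02 over all genes. Mmp2 stood at 9.99, 9.39, 9.61, 10.16 and 9.83 in met-like primaries, against 8.21, 7.71, 7.99, 8.72 and 8.39 in islet tumours. The lowest met-like primary lay above the highest islet tumour, and the difference was 1.59 ± 0.17, or 3.02-fold (adjusted p = 4.09e-07). Within the title prefixes I, II and III it was 1.79 (1 array against 1), 1.65 (2 against 2) and 1.44 (2 against 2).

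Timp2, which carries proMMP2 to MMP14, was 9.94, 9.41, 9.51, 9.70 and 9.13 in met-like primaries, against 9.12, 8.76, 9.12, 8.91 and 8.76 in islet tumours. The lowest met-like primary (III-8023-MLP) came down to the top of the islet tumours, and the difference was 0.61 ± 0.14 (adjusted p = 0.00296). Within the prefixes it was 0.83, 0.52 and 0.58. Timp3 was 10.19, 9.70, 9.96, 10.54 and 10.19 in met-like primaries, against 9.29, 9.73, 9.25, 9.67 and 9.35 in islet tumours, with II-648-MLP just under II-649-tumor. Its difference was 0.66 ± 0.14 (adjusted p = 0.000992), and within the prefixes 0.90, 0.34 and 0.86. These 3 calls were kept in all 19 alternatives run for each of them.

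Mmp14, the activator of MMP2, did not pass here, with a difference of 0.05 ± 0.14 (95% interval -0.25 to 0.34, adjusted p = 0.881). It was 8.28, 8.25, 8.73, 8.17 and 8.56 in met-like primaries, against 8.35, 8.16, 8.19, 8.56 and 8.49 in islet tumours, and the groups covered nearly the same range. Timp1 was 7.36, 7.02, 7.72, 7.70 and 7.57 in met-like primaries, against 6.88, 6.91, 7.26, 7.60 and 7.37 in islet tumours, with a difference of 0.27 ± 0.15 (adjusted p = 0.222). Fibroblast markers were higher in 2 of 10 cases and lower in 0 (median 0.24, 7.99 to 8.70 on the arrays of met-like primaries, against 7.76 to 8.26), macrophage markers were higher in 1 of 13 and lower in 2 (median -0.10), pericyte markers were lower in 4 of 8 (median -0.45) and endothelial markers in 8 of 10 (median -0.79). Beta-cell markers were lower in 8 of 8 (median -1.56). Their part in the rise of Mmp2 was not tested.

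**Figure D3:**
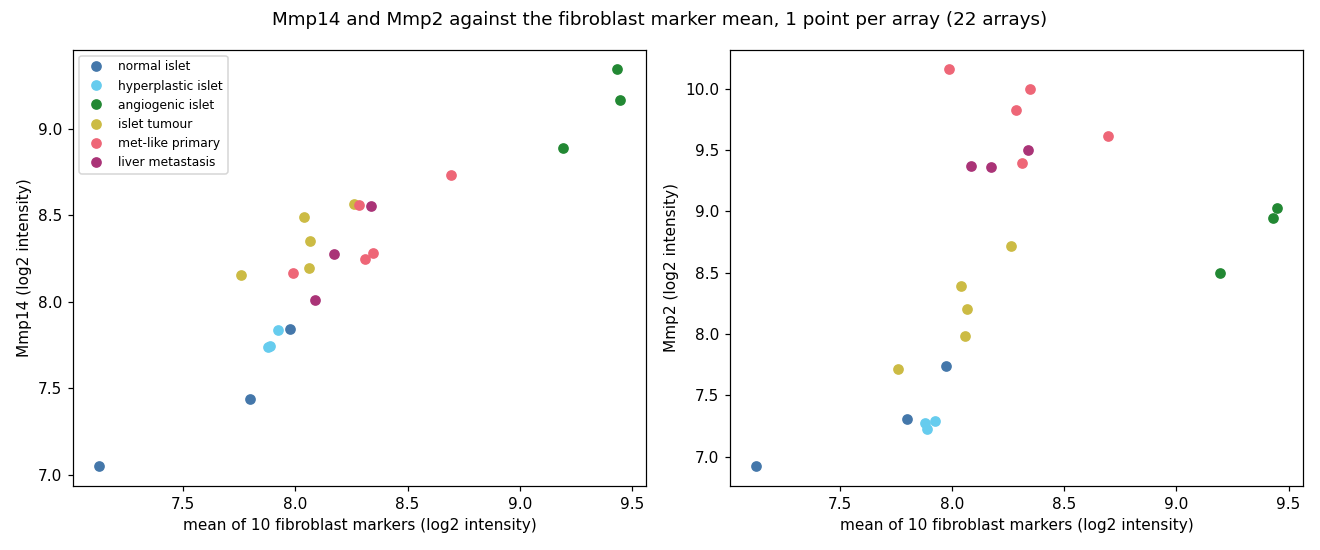
Mmp14 (left, vertical axis) and Mmp2 (right, vertical axis) against the mean of 10 fibroblast markers (horizontal axes), all as log2 intensity, 1 point per array, coloured by tissue label. For Mmp14 the Pearson r was 0.91 over 22 arrays. Islet tumours lie above hyperplastic islets in Mmp14, at marker means of 7.76 to 8.26 against 7.88 to 7.92. For Mmp2 (r = 0.49) met-like primaries and liver metastases lie above angiogenic islets, at lower marker means. The part of fibroblasts in these levels was not tested.

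Liver metastases differed from met-like primaries chiefly in Timp1. Of the 10 genes 2 fell, Timp1 and Mmp3, and none rose, where 15.7% of all genes were called, 7.87% lower and 7.8% higher. The median difference was -0.33 for the 10 genes and -0.01 over all genes. Timp1 was 6.44, 6.58 and 6.58 in liver metastases, against 7.36, 7.02, 7.72, 7.70 and 7.57 in met-like primaries. The 3 metastases were tightly grouped below every primary, and the difference was -0.94 ± 0.18 (adjusted p = 0.000783). All metastases carry the title prefix I, and against the 1 met-like primary of that prefix the difference was -0.83. Mmp3 was 5.88, 5.65 and 5.76 in liver metastases, against 6.31, 6.32, 6.58, 5.83 and 6.09 in met-like primaries. It overlapped, and its difference of -0.46 ± 0.16 was only just called (adjusted p = 0.0493), a call kept in 7 of 16 alternatives. It was lost without any 1 of the metastases, or without I-9812-MLP, II-648-MLP or II-6413-MLP (adjusted p = 0.0755 to 0.185). Mmp3 is also below the lower quartile of gene means (6.20) on these arrays.

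Mmp2 was 9.37, 9.50 and 9.36 in liver metastases, where 2 of the 3 lay just below every met-like primary and the other within their range (-0.39 ± 0.20, adjusted p = 0.222). Timp2 was 9.39, 9.13 and 9.61 in liver metastases and differed by -0.16 ± 0.17 (adjusted p = 0.595). Timp3 was 9.55, 9.98 and 9.52 in liver metastases, a difference of -0.44 ± 0.16 (adjusted p = 0.0715) that was called without II-648-MLP (0.0237) or I-9821-Met (0.0401). Mmp14 was 8.01, 8.56 and 8.28 (-0.11 ± 0.16, adjusted p = 0.714). Mmp13 was 6.03, 6.35 and 6.38 in liver metastases, against 6.68, 6.88, 7.26, 7.02 and 6.86 in met-like primaries. Although its groups did not overlap, the difference of -0.69 ± 0.29 missed the threshold (adjusted p = 0.121). The spread of Mmp13 in that test comes from all groups, islet tumours included, and a fit of the 8 arrays alone called it (adjusted p = 0.00819). Macrophage markers were lower in 7 of 13 cases (median -0.62, 7.50 to 7.68 in liver metastases, against 7.83 to 8.50), and hepatocyte markers were higher in 10 of 11 (median 3.39). Of the hepatic stellate markers 4 of 6 were higher (median 0.45) and of the beta-cell markers 3 of 8 (median 0.22), acinar markers were lower in 5 of 9 (median -1.58), and the part of these cells in the differences was not tested.

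Against islet tumours, liver metastases were higher in Mmp2 (1.21 ± 0.20, 2.31-fold, adjusted p = 6.39e-05) and Timp2 (0.44 ± 0.17, adjusted p = 0.0422) and lower in Timp1 (-0.67 ± 0.18, adjusted p = 0.00472). That is 2 of 10 genes higher and 1 lower, with 36.6% of all genes called, 17.3% higher and 19.3% lower. The median difference was -0.00 for the 10 genes and -0.03 over all genes. Against the 1 islet tumour of prefix I, Mmp2 differed by 1.20, Timp2 by 0.26 and Timp1 by -0.34. The Timp2 call was kept in 9 of 17 alternatives, with adjusted p from 0.0222 to 0.58, and lost without II-649-tumor, III-8017-tumor, III-8024-tumor, I-9820-Met or I-9822-Met. The call of Mmp2 was kept in all 17. Without III-8024-tumor, Mmp3 (-0.40, adjusted p = 0.0466) and Mmp7 (-0.43, adjusted p = 0.0387) were called lower as well, and without II-6415-tumor Mmp13 (-0.91, adjusted p = 0.00783). Hepatocyte markers were higher in 11 of 11 cases (median 4.06), while macrophage markers were lower in 9 of 13 and higher in 2 (median -0.73). Beta-cell markers were lower in 7 of 8 (median -1.17), acinar markers in 8 of 9 (median -1.61), endothelial markers in 7 of 10 (median -0.70) and pericyte markers in 4 of 8 (median -0.38). Their part in these differences was not tested.

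**Figure D4:**
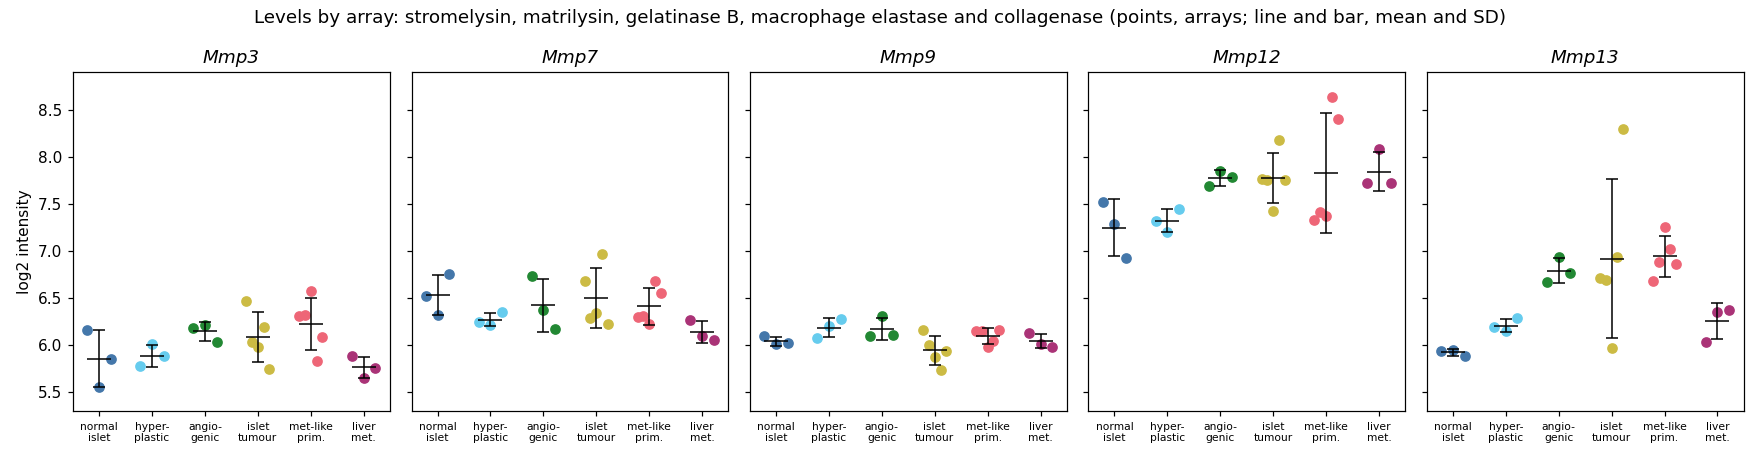
Log2 intensity (vertical axis) of Mmp3, Mmp7, Mmp9, Mmp12 and Mmp13 on each of the 22 arrays, by tissue label in stage order (horizontal axis). Points are arrays, and the line and bar give the group mean and SD. Mmp9 keeps within 5.74 to 6.31 on every array, and 1 islet tumour stands out in Mmp13 at 8.29.

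Mmp9, the protease linked with the angiogenic step in this mouse model, had the narrowest range of the 10 genes. Its mean was 6.04 ± 0.05 in normal islets (SD, n = 3), 6.19 ± 0.10 in hyperplastic islets (n = 3) and 6.17 ± 0.12 in angiogenic islets (n = 3). It was 5.94 ± 0.16 in islet tumours (n = 5), 6.10 ± 0.08 in the 5 met-like primaries and 6.04 ± 0.08 in the 3 liver metastases. The ranges of all neighbouring groups in the order of means overlapped. It was called in none of the 8 comparisons (adjusted p = 0.0962 to 0.966), although quantile normalization called it lower in islet tumours than in angiogenic islets (-0.26, adjusted p = 0.0144) and higher in met-like primaries than in islet tumours (0.16, adjusted p = 0.0371). Without I-9811-tumor, the islet tumour with the highest Mmp9, the same calls were made (-0.28, adjusted p = 0.0344, and 0.21, adjusted p = 0.0332). Mmp9 also lies below the lower quartile of gene means, where an array can miss small changes. Neutrophil markers averaged 5.50 to 5.93 over the 22 arrays, also below that quartile. Their part in the level of Mmp9 was not tested.

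Mmp7 passed in none of the 8 comparisons either (adjusted p = 0.0764 to 0.915). Its highest array was III-8017-tumor at 6.97 and its lowest a liver metastasis at 6.06, and group means ran between 6.14 in liver metastases and 6.53 in normal islets. Mmp12 was not called in any comparison either (adjusted p = 0.118 to 0.996). Fits of the compared arrays alone called it higher in angiogenic islets (adjusted p = 0.0351) and in islet tumours (adjusted p = 0.0454) than in normal islets. It also divided the met-like primaries. The prefix III primaries stood at 8.63 and 8.40 and the other 3 at 7.32, 7.41 and 7.37. The islet tumour III-8017-tumor (8.18) was also the highest of its group. The other islet tumour of prefix III, III-8024-tumor, stood at 7.75, level with I-9811-tumor (7.76) and II-649-tumor (7.75). The part of the prefix in this was not tested. Mmp3 had group means between 5.76 in liver metastases and 6.22 in met-like primaries, and all neighbours in that order overlapped.

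By order of group means, the remaining genes fell into different sequences. Mmp2 ran from hyperplastic islets (7.26) through normal islets (7.32), islet tumours (8.20), angiogenic islets (8.82) and liver metastases (9.41) to met-like primaries (9.80), and the only neighbours whose arrays did not overlap were angiogenic islets and liver metastases. Mmp14 was lowest in normal islets (7.44) and highest in angiogenic islets (9.13), which stood clear of all others, while liver metastases, islet tumours and met-like primaries (8.28 to 8.40) overlapped. Timp1 had a low set of normal islets, hyperplastic islets and liver metastases (6.31 to 6.53) and a high set of islet tumours, met-like primaries and angiogenic islets (7.20 to 7.89), with no overlap between the sets. Timp2 had hyperplastic islets (8.21) and normal islets (8.41) clear below the 4 other groups (8.93 to 9.54), which overlapped with their neighbours. Timp3 had no gap between any neighbours, from 9.24 in hyperplastic islets to 10.12 in met-like primaries. Mmp13 was lowest in normal islets (5.92), which stood clear below hyperplastic islets (6.21) and liver metastases (6.25), and these stood clear below the angiogenic islets (6.79). Islet tumours (6.92) ran across these steps, from 5.97 to 8.29, with the lowest tumour below every hyperplastic islet and liver metastasis array.

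Over the 22 arrays, which share their group structure, Mmp2 varied with Timp2 (Pearson r = 0.90) and Mmp14 with Timp1 (r = 0.84), as a description without a test. Mmp2 and Mmp14 had r = 0.61, Timp1 and Timp2 r = 0.55, and Mmp9 had no r above 0.17 with any of the other 9. With group means removed, r was 0.37 for Mmp2 with Timp2 and 0.57 for Mmp14 with Timp1. Mmp2 then had higher r with Mmp7 (0.62), Timp1 (0.61) and Mmp14 (0.55) than with Timp2. The r values below are without that removal. The genes most like each called member over all 19938 genes were Cdh11 (r = 0.96), Fam102b (0.96) and Cyria (0.94) for Mmp2, and Col1a1 (0.96), Col1a2 (0.95) and Ccdc80 (0.95) for Mmp14. For Timp1 they were Lgals1 (0.93), Lox (0.93) and Col8a1 (0.91), and for Timp2 Lrp1 (0.91), Mmp2 (0.90) and Ubash3b (0.90). Timp3 was matched less closely, by Gab1 (0.83), S100a6 (0.79) and Id3 (0.76). For Mmp13 they were Clec7a (0.89), Fcgr1 (0.88) and Slamf9 (0.87), and for Mmp3 Cpxm2 (0.85), Adamtsl1 (0.80) and Ccn5 (0.80). With the mean of the 13 macrophage markers, Timp1 had r = 0.87, Mmp14 0.86 and Mmp13 0.79, against 0.50 for Mmp2 and -0.02 for Mmp9. With the beta-cell marker mean, r was -0.86 for Mmp2, -0.75 for Timp2, -0.51 for Timp3, -0.25 for Mmp14 and -0.24 for Timp1.

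**Figure D5:**
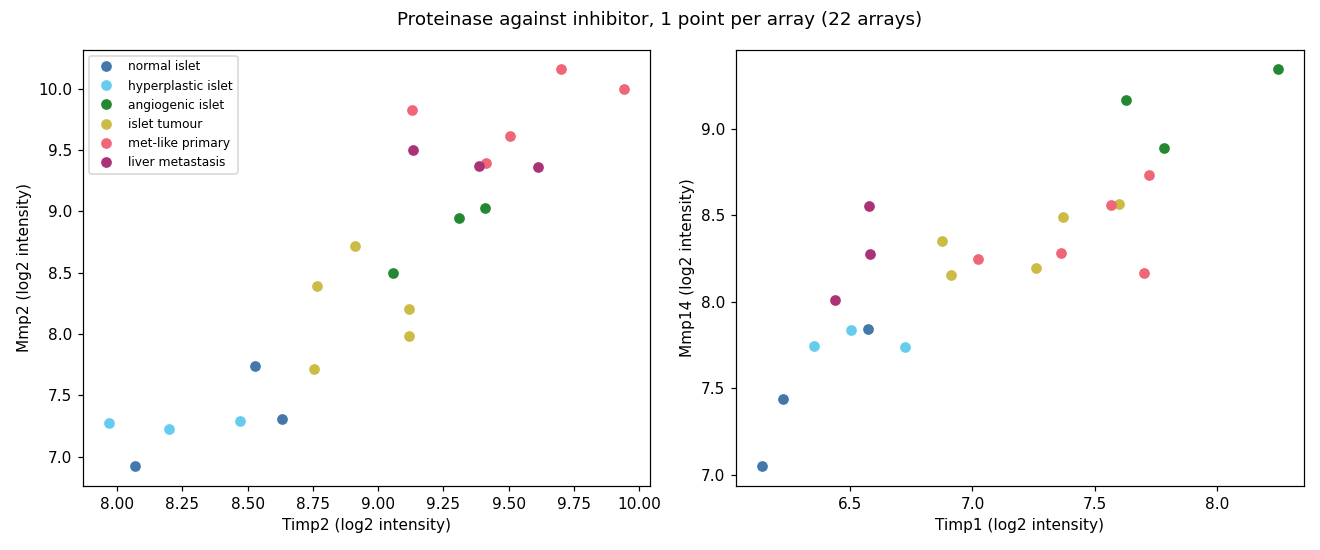
Mmp2 against Timp2 (left) and Mmp14 against Timp1 (right) as log2 intensity, 1 point per array, coloured by tissue label. Mmp2 and Timp2 are highest in met-like primaries and liver metastases (r = 0.90 over 22 arrays), whereas Mmp14 and Timp1 are highest in angiogenic islets (r = 0.84). With group means removed, r was 0.37 for Mmp2 and Timp2 and 0.57 for Mmp14 and Timp1.

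Few calls were made in the rest of the family. Of 17 other metalloproteinase and inhibitor genes 16 were measured. In each of the 8 comparisons at most 1 of them was called, with list medians between -0.06 and 0.05. None was called in angiogenic against hyperplastic islets (2.53% of all genes) or islet tumours against angiogenic islets (9.54%). None was called either in met-like primaries against islet tumours (26.5%) or liver metastases against met-like primaries (15.7%). The comparisons with 1 call, given below, had 8.64%, 24.8%, 29% and 36.6% of all genes called, in that order. The mean of the 16 genes was 5.92 to 6.12 on every array. This is below the lower quartile of gene means (6.20), where an array can miss small changes. The collagenase gene Mmp8 was lower in hyperplastic than in normal islets (4.55 against 4.94, adjusted p = 0.0167), a dim level. Mmp24, a membrane-bound enzyme, was lower in angiogenic than in normal islets (7.79 against 8.08, adjusted p = 0.0471). Mmp27 was higher in islet tumours than in normal islets (5.90 against 5.57, adjusted p = 0.0268), and Mmp16, another membrane-bound enzyme, was lower in liver metastases than in islet tumours (5.53 against 6.15, adjusted p = 0.036). Timp4, the remaining inhibitor, had group means of 6.05 to 6.24 and was not called.

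Of 26 genes listed as activators of the enzymes or as restraining them by other routes, 23 were measured. In angiogenic against hyperplastic islets 5 rose and 0 fell, where 2.53% of all genes were called, among them Plau, the urokinase whose product plasmin can cleave proenzymes (0.65 ± 0.13, adjusted p = 0.00434), the protease inhibitor Tfpi2 (0.67 ± 0.10, adjusted p = 0.000531) and Lrp1, a receptor that takes up protease complexes (0.86 ± 0.19, adjusted p = 0.0119). In islet tumours against angiogenic islets 1 rose and 6 fell, where 9.54% of all genes were called. The rise was the proprotein convertase Pcsk6 (0.50 ± 0.11, adjusted p = 0.00735), and the falls included the tissue plasminogen activator Plat (-0.63 ± 0.13, adjusted p = 0.00312) and Tfpi2 (-0.37 ± 0.09, adjusted p = 0.0126).

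In met-like primaries against islet tumours, 2 of these 23 genes rose and 4 fell, a share near the 26.5% of all genes called. Plat averaged 8.34 in met-like primaries and 7.53 in islet tumours, a difference of 0.81 ± 0.11 (adjusted p = 7.66e-06). Cd44, the hyaluronan receptor that can dock MMP9 at the cell surface, differed by -1.42 ± 0.29 (adjusted p = 0.000682). Mt1 differed by -1.94 ± 0.19 (adjusted p = 7.6e-08). It is counted in the list, but it encodes a metal-binding metallothionein and not a known activator or inhibitor of the enzymes. In liver metastases against met-like primaries 3 rose and 0 fell, a share no higher than the 15.7% of all genes called. The largest differences were those of Plg, the plasminogen made by hepatocytes (2.91 ± 0.21), and Serpinf2, the plasmin inhibitor also made there (1.73 ± 0.16). Hepatocyte markers rose beside them, as given above, and the part of liver tissue was not tested.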

How the data were processed

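Levels are the log2 intensities of the authors' deposited value table for 22 Affymetrix Mouse Gene ST arrays of TRIzol-purified total RNA. Per the series' design text the scanned arrays were processed with aroma.affymetrix, with version, background correction and normalization method not stated there. The log2 scale was read from the values, and a compression of low levels by background would make folds of dim genes too small. Of 35511 probe sets, 21789 carry 1 gene symbol, 1621 several and 12101 none in the platform annotation used here. The probe set with the highest mean stood for each of 19938 genes, and levels of different genes are not compared. The tissue label gave each sample's group.

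One limma model (version 3.58.1, R 4.3.3) with a mean per group was fitted over all genes and arrays, with Benjamini-Hochberg adjustment within each of 8 comparisons, and an adjusted p below 0.05 counted as a call. Comparisons share groups and so are not independent. Intervals are at 95%. Precision is limited by how few arrays a group has. On simulated data for angiogenic against hyperplastic islets (19938 genes), 91 of 100 genes were recovered at a log2 change of 1 and 98 of 100 at 2. Alternatives were 9 other settings and leaving out each array in turn.

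The 10 members and all gene lists were chosen with earlier results of these data known. From the lists, up to 4 genes per comparison with the smallest adjusted p are named, and for each member called at least once the 3 genes with the highest r. Listed genes that are not counted as measured are not analysed here. The codes in the sample titles have no stated meaning. Deviations from group means of same-code samples correlated at 0.197 to 0.448 between normal and hyperplastic islets. Between hyperplastic and angiogenic islets they correlated at 0.353 to 0.479. The main fit does not use this pairing, so its differences and p-values are unpaired. The code enters only in alternatives, and as a replicate block it changed no member's call in these comparisons.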

Additional observations from a re-analysis of the deposited data

How the results depend on the processing

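Of 25 called differences of the 10 genes, 16 were kept in all their alternatives, and no called difference changed sign. Leaving out an array kept the call or its absence in 568 of 600 cases, and the other settings in 668 of 704. The cause of the changes was not tested, except where a setting tests fewer genes. Members called in islet tumours against angiogenic islets numbered 3, but 1 with only the arrays compared. In liver metastases against met-like primaries they numbered 2, but 1 with median centring and 1 without dim genes, a filter that removes Mmp3. With the title code as a replicate block, islet tumours against normal islets had 3 called members and not 5, since Mmp14 (0.69, adjusted p = 0.0523) and Mmp13 (0.81, adjusted p = 0.17) did not pass. In that block, liver metastases against islet tumours had 2, with Timp2 at 0.15 (adjusted p = 0.58), Timp1 at -0.45 (adjusted p = 0.108) and Mmp3 called at -0.55 (adjusted p = 0.0337). In angiogenic against normal islets the block had 5 called members and not 4, with Mmp13 called (0.87, adjusted p = 0.0493, and 0.0468 with the code as a random block). Between normal and angiogenic islets, same-code correlations were 0.0568 to 0.144, all above those of pairs with different codes (-0.0904 to 0.039). Between islet tumours and liver metastases, same-code correlations were -0.147 to 0.174, within the range of pairs with different codes (-0.181 to 0.244). Leaving out 1 array gave 0 to 0 called members for hyperplastic against normal islets, 4 to 5 for angiogenic against hyperplastic islets, 4 to 4 for angiogenic against normal islets and 1 to 4 for islet tumours against angiogenic islets (1 without Angiogenic2006). It gave 4 to 5 for islet tumours against normal islets, 3 to 4 for met-like primaries against islet tumours, 1 to 2 for liver metastases against met-like primaries and 2 to 4 for liver metastases against islet tumours. Mmp3 and Mmp9 lie below the lower quartile of gene means (6.20), where signal over background limits what can be seen, and 8 members passed that filter.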

Other observations

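A related protease family, the ADAM and ADAMTS genes (16 of 17 listed were measured), which shed membrane proteins and cleave proteoglycans, is described here beside the share of all genes called. In angiogenic against hyperplastic islets 5 rose and 0 fell (median 0.31, 2.53% of all genes called). Adamts5, an aggrecanase, averaged 7.17 in angiogenic islets and 6.12 in hyperplastic islets (1.05 ± 0.20, limma adjusted p = 0.00392), and Adamts12 averaged 7.72 in angiogenic islets and 6.94 in hyperplastic islets (0.79 ± 0.13, adjusted p = 0.00108). In islet tumours against angiogenic islets 0 rose and 5 fell (median -0.29, 9.54% of all genes called), with Adamts1 at 7.29 in islet tumours and 8.72 in angiogenic islets (-1.43 ± 0.18, adjusted p = 4.21e-05).

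In met-like primaries against islet tumours, 6 of these 16 genes rose and 0 fell (median 0.12, 26.5% of all genes called). Adam12, a protease known from tumour stroma and muscle, averaged 8.01 in met-like primaries and 6.96 in islet tumours (1.05 ± 0.09, adjusted p = 1.22e-08), and Adamts15 averaged 6.86 in met-like primaries and 6.29 in islet tumours (0.56 ± 0.09, adjusted p = 4.94e-05). In liver metastases against met-like primaries 0 rose and 4 fell (median -0.08, 15.7% of all genes called), with Adamts15 at 6.08 in liver metastases and 6.86 in met-like primaries (-0.78 ± 0.10, adjusted p = 1.58e-05) and Adam8, a protease of leukocytes, at 7.16 in liver metastases and 7.67 in met-like primaries (-0.51 ± 0.12, adjusted p = 0.00432). Against normal islets, 12 rose and 0 fell in angiogenic islets (24.8% of all genes called), and 5 rose and 2 fell in islet tumours (29%). In liver metastases against islet tumours 6 rose and 3 fell (36.6%), and in hyperplastic against normal islets limma called 0 (8.64%), with 3 at an unadjusted p below 0.05. The part of host cells in these differences was not tested.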
